A study of Mus musculus with 56 samples.

Results

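Transcripts of 9 muscle Asb genes, Asb2, Asb5, Asb8, Asb10, Asb11, Asb12, Asb14, Asb15 and Asb18, were followed in gastrocnemius muscle of 56 mice. They are 9 of the 15539 genes listed in the count table. The set was chosen by name from the Asb family, partly on measured values, because earlier results of the same counts had Asb12 lower in FHE than in FCE mice. That comparison is therefore given as a description with no test. All 9 passed the filter on low counts, which left 14321 genes.

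Asb proteins carry ankyrin repeats, which bind a substrate, and a SOCS box, which binds elongin B, elongin C and the scaffold protein cullin 5. Cullin 5 carries the ring protein Rnf7, and the assembled complex attaches ubiquitin to the bound substrate. Several family members are most abundant in striated muscle, where Asb2 is best known for marking filamins and desmin for degradation and for limiting muscle mass.

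The mice were C57Bl/6 and carried a floxed Elavl1 gene, which encodes the RNA-binding protein HuR. Groups FC, FCE, MC and MCE were control littermates without the knockout (F for female, M for male), and FH, FHE, MH and MHE were labelled as skeletal muscle HuR knockouts (HuR m-/-). The E groups had a running wheel and the other groups a locked wheel, with 7 mice in each of the 8 groups. The labels give 10 weeks of wheel exposure, once as from 10 to 20 weeks of age and once as at 5 months of age. HuR m-/- mice owe the deletion to Cre recombinase driven by the Mlc1f promoter of Myl1, the fast myosin light chain gene, so cells of the muscle other than fibres are not targeted.

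The genotype labels were checked against the counts first. Elavl1 showed no decrease by label, with a log2 fold change of 0.17 ± 0.07 (SE, adjusted p = 0.105) averaged over FH against FC, MH against MC and MHE against MCE, and it was higher in MHE than MCE by 0.44 ± 0.11 (adjusted p = 0.0242). The part of the transcript that was read was not settled by the sources used here, and reads outside the deleted part check nothing. Myl1 was lower by label (log2 fold change -0.64 ± 0.13, adjusted p = 0.000617), and 21 of the 28 labelled mice lay below all controls matched for sex and wheel. Directions by genotype in these counts therefore rest on the labels. The study itself reports less Elavl1 mRNA by PCR in gastrocnemius of HuR m-/- mice than of controls. Total counts ran from 6639782 to 21633091 per mouse (median 12380363), 12 fast fibre genes had a mean log2(CPM + 0.5) with a median of 12.4 to 12.7 in every group, and all 56 mice matched their sex label.

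The members lie on 8 chromosomes of GRCm38 (GENCODE M21 annotation). Asb2 is at chr12:103321142-103356001 on the minus strand, Asb5 at chr8:54529580-54587842 on the plus strand and Asb8 at chr15:98134637-98165625 on the minus strand. Asb10 is at chr5:24532697-24540978 on the minus strand, Asb14 at chr14:26894557-26915258 and Asb15 at chr6:24528144-24573164, both on the plus strand, and Asb18 at chr1:89950220-90014666 on the minus strand. Asb11, at chrX:164436994-164459170 on the plus strand, and Asb12, at chrX:95470201-95557987 on the minus strand, are X-linked. Asb2 overlaps the antisense gene Gm15523, and Asb5 overlaps Spcs3 and 5330439A09Rik on the opposite strand. Whether counting used strand is not given in the sources used here, so the counts of Asb2 and Asb5 may hold reads of these neighbours.

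Promoter windows from 250 bases before to 50 bases after the annotated start are shown for 4 members with a single start, because 3 of them (Asb10, Asb14 and Asb15) were lower both in females and by genotype label and the other (Asb11) was the member higher in females. They are RefSeq sequences on GRCm38.p6, written in the direction of the gene. Capitals mark each match, on either strand, to CAGCTG (an E-box bound by MyoD family factors), TAAAAATA (an A/T-rich MEF2-type site), CATTCC (the M-CAT element of TEAD factors), AGAACA (the hexamer contacted by each subunit of the glucocorticoid and androgen receptors) or TATAAA (the TATA box).
Asb10, chr5:24540929-24541228, minus strand: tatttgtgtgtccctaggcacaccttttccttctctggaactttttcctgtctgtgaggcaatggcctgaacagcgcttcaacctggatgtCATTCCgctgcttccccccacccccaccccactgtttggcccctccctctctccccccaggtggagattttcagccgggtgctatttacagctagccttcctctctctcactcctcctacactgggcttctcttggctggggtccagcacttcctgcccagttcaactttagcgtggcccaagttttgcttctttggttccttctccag
Asb14, chr14:26894364-26894663, plus strand: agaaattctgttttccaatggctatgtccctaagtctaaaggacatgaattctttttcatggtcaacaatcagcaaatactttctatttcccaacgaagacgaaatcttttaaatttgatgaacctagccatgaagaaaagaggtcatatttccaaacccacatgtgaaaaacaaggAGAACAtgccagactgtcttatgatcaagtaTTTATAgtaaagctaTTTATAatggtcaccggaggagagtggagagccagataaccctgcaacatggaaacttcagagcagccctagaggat
Asb15, chr6:24527894-24528193, plus strand: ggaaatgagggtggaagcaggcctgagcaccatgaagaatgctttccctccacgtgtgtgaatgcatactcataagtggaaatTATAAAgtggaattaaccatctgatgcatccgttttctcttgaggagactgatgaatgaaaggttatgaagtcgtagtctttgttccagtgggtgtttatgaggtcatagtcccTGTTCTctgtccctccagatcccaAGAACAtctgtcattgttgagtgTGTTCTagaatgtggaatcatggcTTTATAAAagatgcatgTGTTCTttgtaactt
Asb11, chrX:164436744-164437043, plus strand: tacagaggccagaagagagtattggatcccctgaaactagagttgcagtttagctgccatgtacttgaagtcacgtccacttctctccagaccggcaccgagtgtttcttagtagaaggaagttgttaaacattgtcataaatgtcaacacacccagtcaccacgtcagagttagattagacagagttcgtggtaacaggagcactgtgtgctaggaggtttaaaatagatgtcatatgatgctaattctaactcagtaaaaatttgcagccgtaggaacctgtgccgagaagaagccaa
The Asb15 window held 4 matches to AGAACA, which begin 53, 29 and 6 bases before the start and at base 36 after it, and 3 to TATAAA, of which 2 overlap each other. Asb14 had 1 match to AGAACA and 2 to TATAAA, Asb10 had 1 to CATTCC, and Asb11 had none of the 5 motifs. Over all 9 members and their annotated starts, AGAACA and TATAAA each occurred in 4 members, CAGCTG in 3, and TAAAAATA and CATTCC each in 2. Of all 32851 promoter windows of the same length, 19% held AGAACA, 13.6% TATAAA, 16.3% CAGCTG, 14.7% CATTCC and 2.72% TAAAAATA. These shares are of single windows, whereas a member counts if any of its windows matches (3 windows for Asb5, 2 each for Asb2 and Asb8). The member counts are thus not on the same footing as the shares. A match describes letters in the window and was not tested as a site.

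HuR binds U-rich and AU-rich stretches of RNA, and the AU-rich pentamer ATTTA was therefore counted in the longest annotated 3′ untranslated region of each member. Asb15 held 4 copies, Asb5 held 3, and Asb8 and Asb11 held 1 each. None was found in Asb2, Asb10, Asb12, Asb14 or Asb18, whereas 70.1% of the 13550 listed genes with such a region held at least 1 copy. That share is not matched for length, and the regions of Asb14 (107 bases), Asb12 (135 bases) and Asb2 (396 bases) were short. Those of Asb10 and Asb18 had 815 and 2458 bases. Of the 4 members lower by genotype label, Asb15 held the pentamer and Asb2, Asb10 and Asb14 did not. Asb15 also had the longest region of these 4 (2388 bases). It held 1.68 copies per kb, beside a median of 1.35 over the 13158 genes with a region of at least 100 bases.

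The members differed widely in level and little between groups. Levels are in CPM, counts scaled to a common library size by TMM (a correction for differences in RNA composition between libraries). Divided by the total exon length in kilobases, the median over 56 mice was 132 CPM per kb for Asb2, the filamin adaptor, and 110 for Asb5, 45.3 for Asb11, 34.2 for Asb14, 31.3 for Asb8, 26.98 for Asb10, 11.3 for Asb12, 8.22 for Asb15 and 2.17 for Asb18. That order holds for reads along the whole transcript, and if reads came from 3′ ends only the division by length does not apply. Within a member, the highest group mean was 1.35 (Asb18) to 1.90 (Asb15) times the lowest.

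Of the 9 members, 7 had the highest or second highest group mean in MC or MCE, the male controls. MC was the highest group for Asb2, Asb5, Asb10, Asb12, Asb14 and Asb15, whereas MH was highest for Asb8, FH for Asb11 and MCE for Asb18. FHE was the lowest group for Asb5, Asb10, Asb12 and Asb14. With the 8 groups of a member put in order, 3 of the 63 neighbouring pairs of group means lay further apart than the larger SD of the pair (MCE and MC for Asb10, FHE and FC for Asb12, FCE and MCE for Asb15), so the order of most neighbours lies within the spread between mice.

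**Figure D1:**
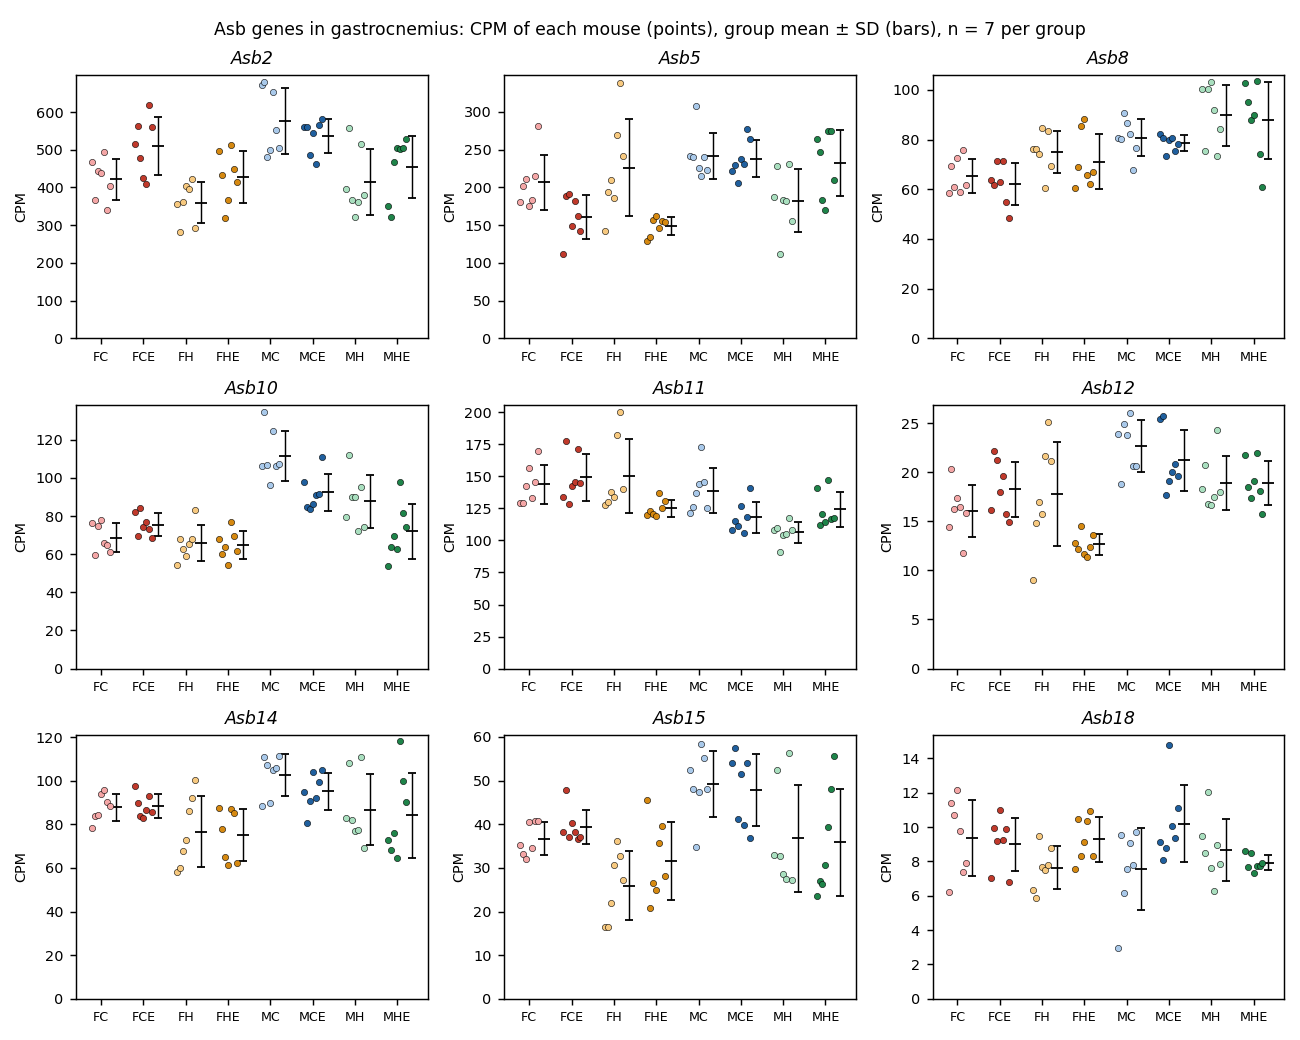
Level of each of the 9 Asb genes in CPM (vertical axes, from 0) in each mouse of the 8 groups (horizontal axes), with black bars for the group mean ± SD of 7 mice. Asb10 in MC (96.2 to 134 CPM) lies above every FC mouse (59.7 to 78.1 CPM), and Asb12 in FHE (11.4 to 14.5 CPM) lies below every FCE mouse (14.9 to 22.2 CPM).

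Sex was compared within each genotype and wheel, and averaged over these 4 strata. Females had less RNA of 7 members (Asb2, Asb5, Asb8, Asb10, Asb12, Asb14 and Asb15) and more of 1 (Asb11) in the average, and Asb18 did not pass the test (log2 fold change, female minus male, 0.05 ± 0.08, adjusted p = 0.675). A call means that limma with voom weights gave p of at most 0.05 after Benjamini-Hochberg adjustment over all 14321 genes. Of all genes tested, 33% were called in this average, 17.1% lower and 15.8% higher in females, against 8 of 9 members. Asb12 stands among these 8 as a description only, since FHE and FCE served for its choice. The median log2 fold change was -0.29 over the members and 0.00 over all genes. In these whole-muscle samples, fewer cells of a type and less RNA per cell cannot be told apart.

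Asb10 showed the largest difference between the sexes. It encodes an Asb protein best known from studies of familial glaucoma. In locked-wheel controls its level had a median of 65.9 CPM (59.7 to 78.1) in FC and 107 CPM (96.2 to 134) in MC. All 7 female controls were below all 7 males, the 1 member without overlap in this stratum, where 6.98% of genes did not overlap. The log2 fold change was -0.70 ± 0.10 (adjusted p = 2.7e-07). It was -0.41 ± 0.10 in FH against MH (adjusted p = 0.0019), where the groups overlapped, and the values in the running strata were -0.29 ± 0.10 (FCE against MCE, adjusted p = 0.0568) and -0.14 ± 0.10 (FHE against MHE, adjusted p = 0.494). The average was -0.38 ± 0.05 (adjusted p = 5.54e-09).

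Asb8, an adaptor whose muscle substrates are little known, was the member called in every stratum. Its median was 61.5 CPM in FC and 80.6 in MC, 62.8 in FCE and 79.6 in MCE, 76.2 in FH and 92.1 in MH, and 67.0 in FHE and 89.9 in MHE. The ranges of FCE (48.3 to 71.5 CPM) and MCE (73.4 to 82.3 CPM) did not overlap, and those of the other 3 strata did. The log2 fold changes lay between -0.34 and -0.26, with adjusted p values of 0.0185, 0.0189, 0.05 and 0.0457 in the order given, and the average was -0.30 ± 0.05 (adjusted p = 1.1e-06). The call in FC against MC was lost without FC 12 (adjusted p = 0.0563). That in FCE against MCE was lost without FCE 5 or FCE 9 (adjusted p up to 0.083). The call in FH against MH was lost without any 1 of 26 of the 56 mice, and that in FHE against MHE without any 1 of 11. The log2 fold changes of these last 2 strata were -0.31 to -0.21 and -0.39 to -0.26 over all mice left out. The average stayed past the threshold without any 1 mouse.

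The sex difference of Asb5, best known from studies of artery growth and muscle precursor cells, was called in the running strata and in the average. The average was -0.29 ± 0.07 (adjusted p = 0.000526). In FCE it ran from 111 to 191 CPM (median 162) and in MCE from 205 to 277 CPM (median 232). In FHE it ran from 130 to 162 CPM (median 154) and in MHE from 170 to 275 CPM (median 247). Neither pair of groups overlapped, and the log2 fold changes were -0.58 ± 0.14 (adjusted p = 0.00259) and -0.63 ± 0.13 (adjusted p = 0.00146). With locked wheels the differences were -0.24 ± 0.13 in FC against MC (adjusted p = 0.214) and 0.30 ± 0.13 in FH against MH (adjusted p = 0.115), and the ranges overlapped in both. Whether the sex difference of Asb5 depended on the wheel was tested as an interaction. It did not pass in controls (-0.35 ± 0.19, adjusted p = 0.273), and the value in labelled mice is given below with running.

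X-linked Asb11, whose fish counterpart marks the Notch ligand Delta for degradation, was the member higher in females. In FH it ran from 128 to 201 CPM (median 138) and in MH from 91.3 to 118 CPM (median 108), without overlap, and the log2 fold change was 0.48 ± 0.09 (adjusted p = 3.28e-05). FCE (129 to 177 CPM, median 145) and MCE (106 to 141 CPM, median 115) overlapped, with a log2 fold change of 0.33 ± 0.09 (adjusted p = 0.00855). The difference was 0.05 ± 0.09 in FC against MC (adjusted p = 0.705) and 0.01 ± 0.09 in FHE against MHE (adjusted p = 0.958), and 0.22 ± 0.04 in the average (adjusted p = 4.2e-05). Asb12, the other X-linked member, went the opposite way. It had a median of 16.3 CPM (11.7 to 20.3) in FC and 23.8 CPM (18.8 to 26.03) in MC, with a log2 fold change of -0.50 ± 0.13 (adjusted p = 0.00372). Its average of -0.36 ± 0.06 is a description, because it holds the FHE and FCE mice that served for the choice.

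For the remaining adaptors the sex difference was smaller than for Asb10 in the average. Asb2 was lower in FC (median 438 CPM, 341 to 494) than in MC (median 553 CPM, 480 to 680), where the ranges overlapped at their edges, with a log2 fold change of -0.45 ± 0.12 (adjusted p = 0.00354), and its average was -0.20 ± 0.06 (adjusted p = 0.00497). Asb15, whose overexpression is known to change protein turnover in muscle cells, was lower in FH (16.3 to 36.2 CPM) than in MH (27.3 to 56.3 CPM) by a log2 fold change of -0.50 ± 0.18 (adjusted p = 0.0413), and its average was -0.33 ± 0.09 (adjusted p = 0.00179). The FH against MH call of Asb15 was lost without FH 13, FH 14, FH 17, MH 8 or MH 12 (adjusted p up to 0.131, log2 fold changes of -0.595 to -0.39 over all mice left out). Asb14 was not called in any single stratum and had an average of -0.17 ± 0.06 (adjusted p = 0.0172).

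By stratum, 4 members were called in FC against MC (Asb2, Asb8, Asb10 and Asb12), where 21.5% of all genes were called. In FCE against MCE 3 were called (Asb5, Asb8 and Asb11) against 7.65% of genes, and without the controls MCE 10 and MCE 13, which had the lowest Elavl1 of all mice, 1 was called. The values of the others were then -0.31 for Asb8 (adjusted p = 0.0951) and 0.30 for Asb11 (adjusted p = 0.0591). FH against MH had 4 (Asb8, Asb10, Asb11 and Asb15) against 19.3%, and FHE against MHE had 2 (Asb5 and Asb8) of the 8 members other than Asb12 against 5.57%. The FHE and FCE mice were those of the comparison that chose Asb12, so its values in FHE against MHE (11.4 to 14.5 CPM in FHE, 15.8 to 21.9 CPM in MHE) are a description. Both FHE and FCE enter the sex average with the same sign and weight, but the SD of Asb12 was 1.10 CPM in FHE and 2.84 CPM in FCE. The sex average of Asb12 is therefore not free of the choice. Members whose groups did not overlap numbered 2 in FCE against MCE (2.97% of genes), 1 in FH against MH (3.21%) and, Asb12 aside, 1 in FHE against MHE (1.83%).

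**Figure D2:**
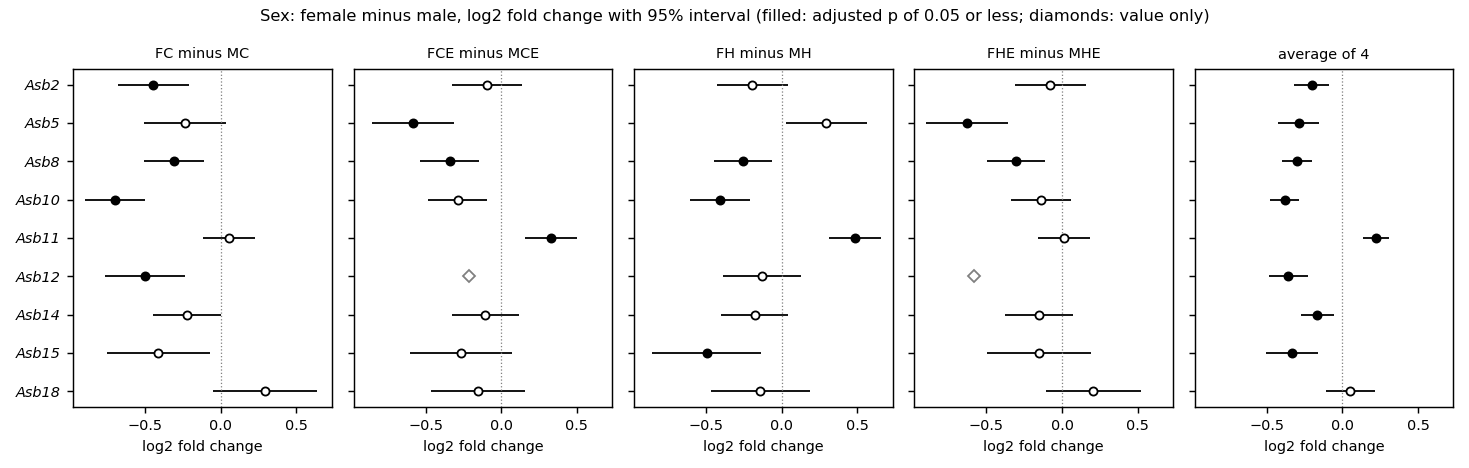
Log2 fold change, female minus male, of the 9 Asb genes (horizontal axes) in 4 strata and their average, with 95% intervals from limma and filled points for calls. Diamonds give Asb12 in strata with FCE or FHE, without a test. The filled point of Asb12 in the average is to be read as a description. In the average 7 members lie below 0, Asb11 lies above it at 0.22, and Asb18 lies at 0.05.

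Genes of several other cell types and of slow fibres moved with sex as well. Of 11 slow fibre genes, 10 were called higher in females, and their mean log2(CPM + 0.5) had a median of 6.82 (6.58 to 7.12) in FC and 6.20 (5.99 to 6.64) in MC. Of 10 adipocyte genes, 8 were called higher in females, with a median of 5.18 (4.61 to 5.53) in FC and 3.78 (3.18 to 4.70) in MC. All 8 tendon and fibroblast genes and all 5 erythroid genes were also called higher in females. Of 12 fast fibre genes, 6 were called lower and 1 higher. With the adipocyte genes as a covariate 3 members were called in the sex average (Asb8, Asb10 and Asb11). Calls over all 14321 genes then went from 4720 to 1109. With the slow fibre genes 4 members were called (also Asb12, whose average is a description). Calls over all genes then stayed within 1.5 times of 4720. Under the slow fibre covariate the values were 0.00 for Asb15 (adjusted p = 0.998) and 0.01 for Asb14 (adjusted p = 0.916), and under the adipocyte covariate the value was 0.00 for Asb14 (adjusted p = 0.999). The part of these cells in the differences was not tested further.

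Genotype label was compared in locked females, locked males and running males, and averaged over these 3. Asb2, Asb10, Asb14 and Asb15 were lower in the mice labelled HuR m-/- in the average, and no member was called higher. Of all genes tested, 10.3% were called in this average, 6.43% lower and 3.87% higher, against 4 and 0 of the 9 members by limma. By the unadjusted p, Asb8 was the 1 further member under 0.05 (log2 fold change 0.16 ± 0.06, adjusted p = 0.0542). EdgeR's quasi-likelihood test and DESeq2 each called 5 members, beside 1447 and 1551 of the 14321 genes. The members' median log2 fold change was -0.13, against 0.01 over all genes.

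Asb15 had the largest difference by genotype label. Its median was 27.1 CPM (16.3 to 36.2) in FH and 35.2 CPM (32.1 to 40.7) in FC. In males it was 32.7 CPM (27.3 to 56.3) in MH and 48.1 CPM (34.9 to 58.4) in MC, and 30.8 CPM (23.5 to 55.7) in MHE and 51.5 CPM (37.0 to 57.4) in MCE. The labelled groups reached lower than the controls and overlapped them in all 3 comparisons, with SDs of 7.87 to 12.3 CPM against 3.80 to 8.25 CPM. The log2 fold changes were -0.54, -0.46 and -0.48, none past the threshold alone (adjusted p = 0.142, 0.158 and 0.112), and the average was -0.49 ± 0.10 (adjusted p = 0.000575).

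Asb2 and Asb10 were called in the average and in locked males, and Asb10 also in running males. In MHE against MCE the value of Asb2 was -0.27 ± 0.12 (adjusted p = 0.233). Asb2 had a median of 381 CPM (322 to 557) in MH and 553 CPM (480 to 680) in MC, with 5 of 7 labelled mice below every control, a log2 fold change of -0.49 ± 0.12 (adjusted p = 0.024) and an average of -0.33 ± 0.07 (adjusted p = 0.000658). Asb10 had a median of 90.2 CPM (72.1 to 112) in MH and 107 CPM (96.2 to 134) in MC, and of 69.5 CPM (53.9 to 97.8) in MHE and 91.3 CPM (83.9 to 111) in MCE. The groups overlapped, and the log2 fold changes were -0.36 ± 0.10 (adjusted p = 0.0469) and -0.38 ± 0.10 (adjusted p = 0.0197), with an average of -0.27 ± 0.06 (adjusted p = 0.000888). Asb14 was not called in a single comparison (log2 fold changes between -0.26 and -0.20) and had an average of -0.23 ± 0.06 (adjusted p = 0.0152).

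Asb11 differed in locked males. It ran from 91.3 to 118 CPM in MH (median 108) and from 122 to 173 CPM in MC (median 137), so that every labelled mouse was below every control. It was the 1 member without overlap in this comparison, as were 0.384% of all genes, and its log2 fold change was -0.38 ± 0.09 (adjusted p = 0.0208). In the other tested comparisons its values were 0.05 ± 0.09 (FH against FC, adjusted p = 0.833) and 0.07 ± 0.09 (MHE against MCE, adjusted p = 0.752). Whether the effect of the label on Asb11 differed with the wheel in males was tested as an interaction (0.45 ± 0.12, adjusted p = 0.189), as was its difference between the sexes with locked wheels (0.43 ± 0.12, adjusted p = 0.207), and neither passed.

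By comparison, no member was called in FH against FC, where 0.384% of all genes were called by limma. Asb15 was the member with an unadjusted p under 0.05 there, and edgeR and DESeq2 also called none. In MH against MC 3 members were called (Asb2, Asb10 and Asb11) against 1.15% of genes, and in MHE against MCE 1 (Asb10) against 2.63%. These calls lay near the threshold, and leaving out single mice ended them while the log2 fold changes kept their direction, at -0.57 to -0.42 for Asb2, -0.41 to -0.32 for Asb11 and -0.42 to -0.30 for Asb10 in MH against MC. Left out singly, 8 mice ended the call of Asb2 in MH against MC (MC 16, MC 17, MC 20, MH 9, MH 11, MH 15, MH 23 and MH 24, adjusted p up to 0.0948), 7 that of Asb11 (MC 20, MC 29, MH 9, MH 11, MH 15, MH 23 and MH 24, up to 0.0917) and 33 of the 56 that of Asb10 (up to 0.134). The call of Asb10 in MHE against MCE ended without MCE 5, MCE 10, MHE 1, MHE 2 or MHE 22 (up to 0.0816), with values of -0.46 to -0.31 over all mice left out. Without the low-Elavl1 controls MCE 10 and MCE 13 together its adjusted p was 0.0915 at a log2 fold change of -0.38, the same as with them. The 4 calls in the average remained without any 1 mouse.

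**Figure D3:**
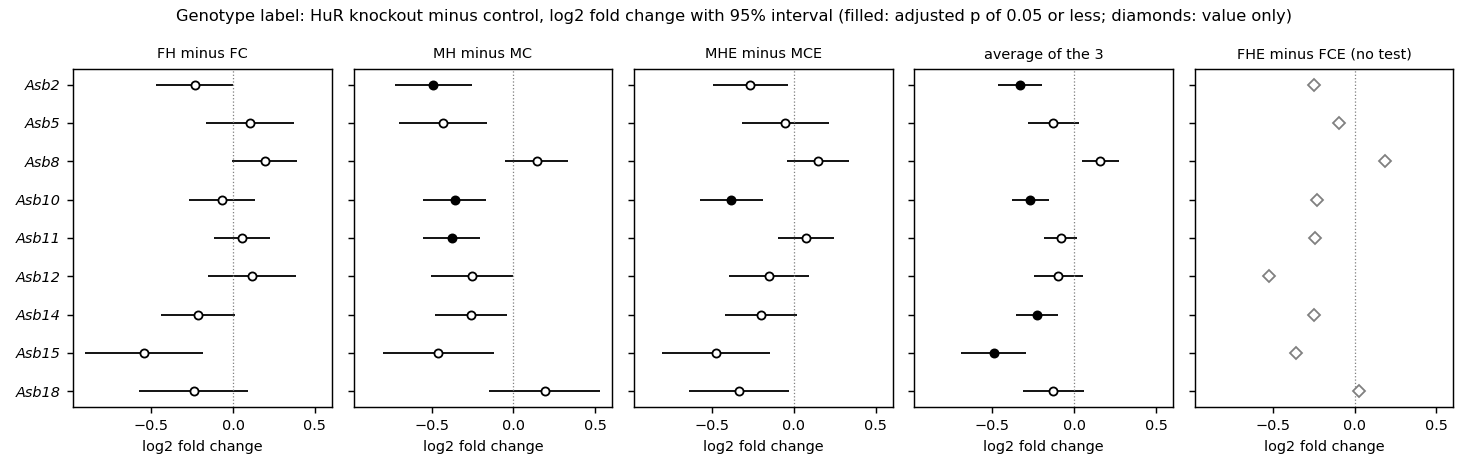
Log2 fold change by genotype label, HuR m-/- minus control, of the 9 Asb genes (horizontal axes) in 3 comparisons and their average, with 95% intervals from limma and filled points for calls. Grey diamonds give FHE minus FCE, the comparison used to choose the genes, without a test. Asb15 lies between -0.54 and -0.36 in every panel.

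Within the labelled groups, mice with more Myl1 often had more Asb14 and Asb15, and Asb2 and Asb10 followed Myl1 less evenly. This is a description of single mice, and no correlation with Myl1 was calculated. MH 8 and MH 12 had 13110 and 13730 CPM of Myl1, the highest of the MH mice, and their Asb14 (111 and 108 CPM), Asb15 (56.3 and 52.4 CPM), Asb2 (515 and 557 CPM) and Asb10 (95.5 and 112 CPM) were also the highest of that group. In MHE, MHE 4, MHE 6 and MHE 7 had Myl1 of 10820, 9744 and 9129 CPM, with Asb14 of 118, 99.9 and 90.4 CPM and Asb15 of 39.5, 48.0 and 55.7 CPM. MHE 2, at the lowest Myl1 of its group (5420 CPM), had 68.1 CPM of Asb14 and 27.04 CPM of Asb15. FH 34 was an exception for Asb15 and Asb2, with the highest Myl1 of its group (13360 CPM), 27.1 CPM of Asb15 and 294 CPM of Asb2. MH 15 had the lowest Myl1 (2320 CPM), with Asb14 and Asb15 near the middle of the MH mice (81.9 and 32.7 CPM). Its Asb10 (90.3 CPM) was above that of MH 9 (74.3 CPM) and MH 11 (79.6 CPM), which had more Myl1. In MHE, Asb2 was 504 CPM in MHE 22 at 5776 CPM of Myl1 and 501 CPM in MHE 4 at 10820 CPM of Myl1.

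With Myl1 as a covariate, no member was called by genotype label in the average (0 by limma, where 57 of all genes were called). The value of Asb14 was then -0.01 (adjusted p = 0.969), that of Asb15 -0.18 (adjusted p = 0.374), that of Asb2 -0.17 (adjusted p = 0.254) and that of Asb10 -0.12 (adjusted p = 0.344). Slow fibre genes moved with the label too. Of 11, 8 were called higher in the average, with medians of 6.69 in MH and 6.20 in MC, 6.99 in MHE and 6.53 in MCE, and 7.24 in FH and 6.82 in FC, on the scale given above. With these genes as a covariate, again no member was called in the average (adjusted p of 0.208 to 0.688 for these 4), and 84 of all genes were. Of 12 fast fibre genes, 2 were called lower by label in the average, Myl1 among them, 1 was called higher and 9 were not called. The higher one was Atp2a1 (0.18 ± 0.06, adjusted p = 0.0225). Their median log2 fold change was -0.004, against 0.009 over all genes. Myl1 is both the gene that drives Cre and a fast fibre gene, and its level, fibre type and genotype cannot be told apart in this design.

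**Figure D4:**
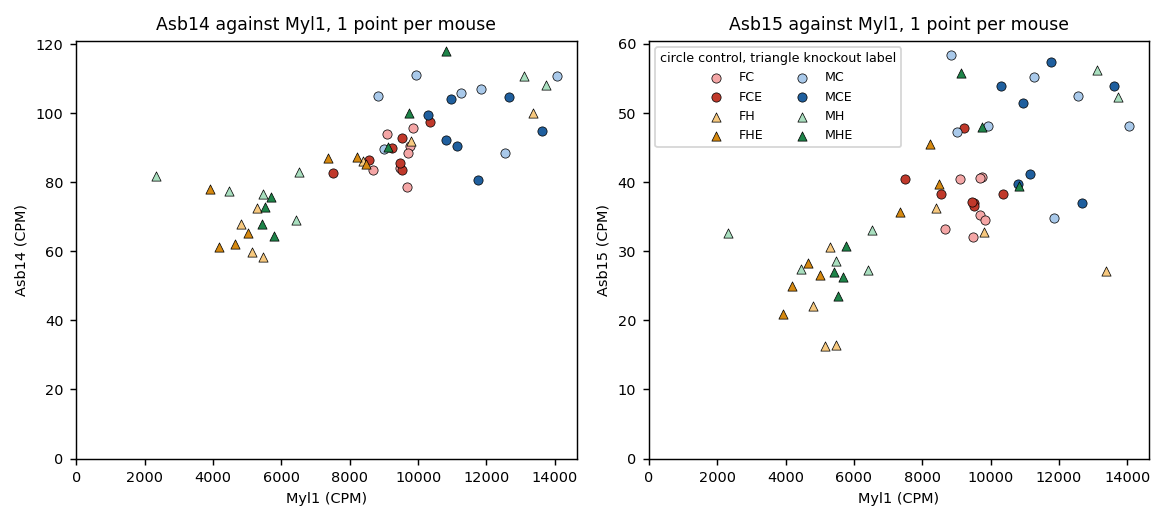
Level of Asb14 (left) and Asb15 (right) against Myl1, all in CPM on axes from 0, with 1 point for each of the 56 mice, circles for controls and triangles for mice labelled HuR m-/-. MH 8 and MH 12, at 13110 and 13730 CPM of Myl1, lie among the male controls on both plots.

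In running females the member that chose the set was lower by label. Asb12 had 11.4 to 14.5 CPM in FHE (median 12.4) and 14.9 to 22.2 CPM in FCE (median 17.98), with a log2 fold change of -0.52 ± 0.14. The values just inside and outside the gap between the groups were 14.5 and 14.9 CPM. Asb12 was the 1 member without overlap, as were 0.321% of all genes, and nothing is read from this since the comparison was used in the choice. The other log2 fold changes of FHE against FCE were -0.36 ± 0.17 for Asb15, -0.25 ± 0.12 for Asb2, -0.25 ± 0.11 for Asb14, -0.24 ± 0.09 for Asb11, -0.23 ± 0.10 for Asb10, -0.10 ± 0.14 for Asb5, 0.03 ± 0.16 for Asb18 and 0.18 ± 0.10 for Asb8. In the comparisons not used for the choice, Asb12 had values of 0.12 ± 0.13 (FH against FC, adjusted p = 0.752), -0.25 ± 0.13 (MH against MC, adjusted p = 0.292) and -0.15 ± 0.12 (MHE against MCE, adjusted p = 0.606), none past the threshold.

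Running was compared with a locked wheel in each sex and genotype. It changed few members. No member was called in the average over the 4 lines, where 5.96% of all genes were called by limma, and Asb2 (0.14 ± 0.06), Asb5 (-0.15 ± 0.07) and Asb10 (-0.11 ± 0.05) had an unadjusted p under 0.05. Likewise none was called in FCE against FC (8.74% of genes), MCE against MC (3.24%) or MHE against MH (0.0419%), with 2, 3 and 3 members at an unadjusted p under 0.05. The quasi-likelihood test of edgeR called no member in these comparisons, and DESeq2 called 1 in FCE against FC and none in the others.

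In labelled females Asb5 was lower with running. Of all genes 3.85% were called, as was 1 of the 8 members other than Asb12, whose FHE values served for the choice. Asb5 had 143 to 338 CPM in FH (median 209) and 130 to 162 CPM in FHE (median 154), with overlap, and a log2 fold change of -0.56 ± 0.13 (adjusted p = 0.00819). Asb12 ran from 9.07 to 25.1 CPM in FH (median 17.01) and from 11.4 to 14.5 CPM in FHE (median 12.4), where the single mouse at 9.07 CPM lay below all FHE mice. Its log2 fold change was -0.44 ± 0.13, given as a description. The call of Asb5 stayed past the threshold without any 1 mouse.

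A difference of the running effect between the sexes was called for 2 members among labelled mice and for 1 among controls. Among labelled mice, Asb5 fell with running in females and had a value of 0.36 ± 0.13 in males (adjusted p = 0.263), and the difference of these effects, female minus male, was -0.92 ± 0.19 (adjusted p = 0.00759). Asb11 had -0.25 ± 0.09 in females (adjusted p = 0.0882) and 0.22 ± 0.09 in males (adjusted p = 0.283), and a difference of -0.47 ± 0.12 (adjusted p = 0.0345). These 2 of 9 compare with 1.35% of all genes. Among controls, Asb10 had 0.14 ± 0.10 with running in females (adjusted p = 0.419) and -0.27 ± 0.09 in males (adjusted p = 0.103), and a difference of 0.41 ± 0.14 (adjusted p = 0.0491), the 1 of 9 members against 8.74% of genes. That count is near the share of all genes and is not read as a trait of the members.

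The difference of Asb5 stayed past the threshold without any 1 mouse, that of Asb11 was lost without any 1 of 10 mice (FH 30, FH 31, FHE 7, FHE 10, FHE 21, FHE 22, MH 15, MHE 1, MHE 4 and MHE 6, adjusted p up to 0.0718), and that of Asb10 without any 1 of 24 of the 56. Over all mice left out the values ran from -0.51 to -0.40 for Asb11 and from 0.37 to 0.46 for Asb10. Without MCE 10 and MCE 13 the difference of Asb10 was still 0.41 (adjusted p = 0.0896). The effect of running did not differ by label in males for any member by limma (0 of 9, with 0.0349% of all genes), where Asb5, Asb11 and Asb18 had an unadjusted p under 0.05. The effect of the label did not pass a test of a difference between the sexes with locked wheels either (0 of 9, with 0% of all genes, of which 1217 had an unadjusted p under 0.05, while edgeR called 0 and DESeq2 1), where Asb5, Asb10, Asb11 and Asb12 had an unadjusted p under 0.05. EdgeR and DESeq2 also called no member in these tests.

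**Figure D5:**
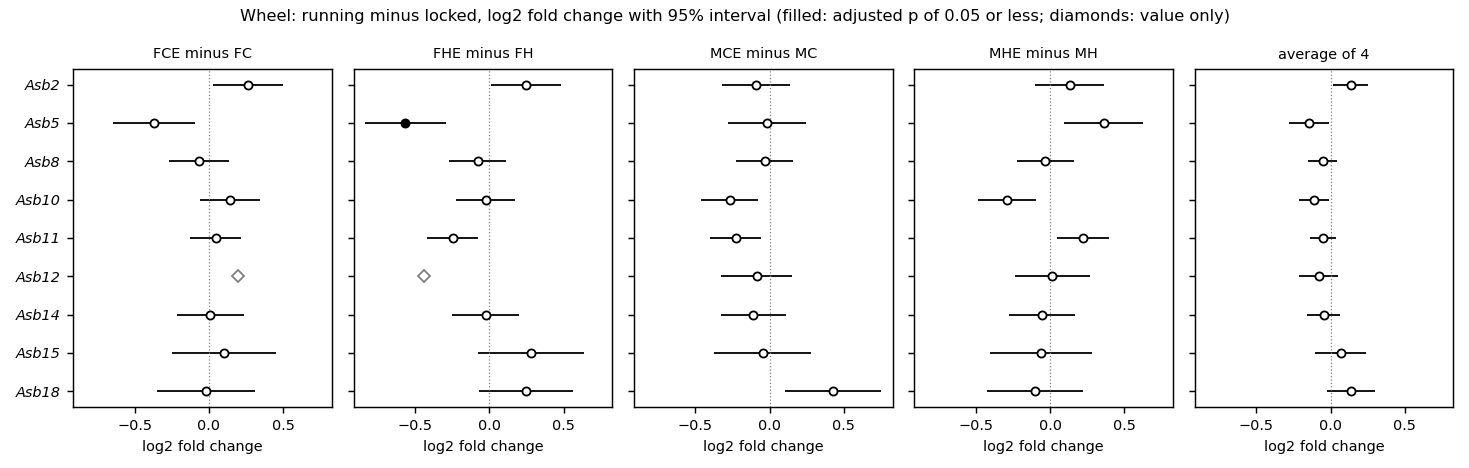
Log2 fold change, running minus locked wheel, of the 9 Asb genes (horizontal axes) in 4 lines and their average, with 95% intervals from limma and filled points for calls. Diamonds give Asb12 in lines with FCE or FHE, without a test. Asb5 in FHE minus FH, at -0.56, is the filled point.

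The rest of the ubiquitin ligase was described beside the adaptors. Of the 7 other Asb genes tested, none was called by limma for running, sex or genotype label in the averages, and 1 had an unadjusted p under 0.05 in each. EdgeR and DESeq2 called none of them either. Among 27 genes of the cullin 5 ligase core and its activation, 7 were lower and 6 higher in females, where 17.1% and 15.8% of all genes were. These were led by Arih2 (log2 fold change -0.38 ± 0.05, adjusted p = 5.12e-09), the ring ligase that primes substrates of cullin 5, and Dcun1d5 (0.26 ± 0.04, adjusted p = 1.69e-06), a neddylation cofactor. By genotype label 4 of the 27 were lower, against 6.43% of all genes, and none higher, led by Dcun1d2 (-0.33 ± 0.05, adjusted p = 4.76e-05) and Arih2 (-0.30 ± 0.06, adjusted p = 0.000173). With running 2 of the 27 were called, against 5.96% of all genes, both lower, namely Dcun1d5 (-0.22 ± 0.04) and elongin B (Elob, -0.20 ± 0.05). Arih2 was thus lower in the same averages as Asb2, Asb10, Asb14 and Asb15.

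Of 20 other SOCS box genes, 3 were higher and 5 lower in females, shares near those of all genes (15.8% and 17.1%), with Socs2, an inhibitor of growth hormone signalling, higher by 1.30 ± 0.13 (adjusted p = 1.64e-12) and Cish, which encodes a related inhibitor, lower (-0.83 ± 0.29, adjusted p = 0.0242). Of 16 tested partners or substrates of Asb proteins, 6 were lower and 1 higher in females, beside the same shares of all genes, led by Jak2 (-0.55 ± 0.06, adjusted p = 1.94e-10) and filamin C (Flnc, -0.46 ± 0.11, adjusted p = 0.00108). Flnc was also the 1 of 16 partners called by genotype label, where 10.3% of all genes were called, and was higher by 0.48 ± 0.13 (adjusted p = 0.0115). Asb2 was lower in that average, whereas in the sex average Flnc and Asb2 were both lower in females. A link between the 2 was not tested. Of 27 other muscle ubiquitin ligase genes, 13 were lower and 2 higher in females, beside 7 and 1 of the 9 members and 17.1% and 15.8% of all genes. The ligase genes' median log2 fold change by sex was -0.17, against -0.29 for the Asb genes and 0.00 for all genes. By genotype label 1 was higher (Klhl40, 0.45 ± 0.11, adjusted p = 0.0058) and 1 lower (Cul3, -0.14 ± 0.04, adjusted p = 0.0181).

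The members did not vary as one block across mice. Over log2 CPM of the 56 mice, which share the group differences above, Asb14 and Asb15 had Pearson's r of 0.76, Asb2 and Asb15 0.76, and Asb10 and Asb14 0.74. With group means subtracted these were 0.65, 0.595 and 0.69. Asb5 and Asb12 had 0.64 (0.57 with group means subtracted), whereas Asb8 and Asb2 had -0.28 (-0.56) and Asb8 and Asb15 -0.21 (-0.48). Asb18, at the lowest counts (27 to 227 per mouse), had values between -0.12 and 0.21 with every other member.

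The genes most like each member over the 56 mice were taken by the same r. Asb14 was close to Fhl3 (0.85), and Asb15 was nearest to Gdap1 (0.84) and Fhl3 (0.84). Asb2 was nearest to Asb15 (0.76) among all genes tested, followed by Kcng4 (0.74) and Ubl3 (0.72). Asb10 was nearest to Eef2k (0.86, and 0.59 with group means subtracted) and Kcmf1 (0.85), Asb8 to Pja2 (0.85) and Uck2 (0.84), and Asb12 to the ubiquitin-conjugating enzyme gene Ube2d3 (0.80) and Eif4ebp1 (0.77). For Asb5 it was 2310002L09Rik (0.76), for Asb11 Tspan8 (0.695) and for Asb18 Etv5 (0.595).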

How the data were processed

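Libraries of gastrocnemius RNA from 56 mice were compared, 7 in each of 8 groups taken from the labels. The authors deposited raw counts, whole numbers of reads per gene with no normalization, for 15539 genes. The smallest total of a listed gene over all mice was 168. The submitters' processing notes name GRCm38, mm10, R 4.0.3 and edgeR 3.38.4, and the aligner is not given in the sources used here. The study's methods describe stranded total RNA libraries and the labels a kit for 3′ ends, which the counts do not settle. The authors' TMM and limma steps were followed with R 4.3.3, edgeR 4.0.16 and limma 3.58.1: filterByExpr by group, TMM, voom and 1 limma fit of 8 group means, with Benjamini-Hochberg adjustment over 14321 genes and a threshold of 0.05. A log2 fold change is the first group minus the second.

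The members and lists were chosen with earlier results of these data known. All 9 members are named, with at most 2 called genes of largest change per list and comparison and the 3 genes most like each member (log2 CPM with a prior count of 2). Marker lists were averaged as log2(CPM + 0.5). The script was tested on simulated data with known changes. Total counts of 6639782 to 21633091 limit the precision of low genes such as Asb18. All 168 pairs of mice within a group differed by more than counting error (chi-square divided by its degrees of freedom, 3.555 to 49.76), so each mouse counted as 1 replicate. The labels do not say that the mice came from separate litters, and p-values measure the spread between mice. Alternatives were DESeq2 (version 1.42.0), edgeR's quasi-likelihood test, limma trend, other scalings, filters and sample weights, subsets of mice, a replicate block, marker covariates and each mouse left out in turn, and, chosen after seeing the data, Myl1 as a covariate and leaving out MCE 10 and MCE 13. Of 36 gene identifiers without a symbol none was named. A gene among those most like a member is not reported here.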

Additional observations from a re-analysis of the deposited data

Results flagged for a closer look

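In 3 of the 72 sets of 7 mice (9 genes in 8 groups) 1 mouse stood apart from the other 6 by Dixon's criterion, and chance alone flags about 1 set in 20. Asb5 was at 280.9 CPM in FC 33, where the nearest FC mouse was at 214.7 CPM. It was at 307.4 CPM in MC 18, where the nearest MC mouse was at 242.1 CPM. Asb15 was at 47.86 CPM in FCE 25, where the nearest FCE mouse was at 40.4 CPM.

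A difference of the running effect between the sexes was called for 3 genes by a test of the difference itself in limma. Among controls the difference for Asb10, female minus male, was 0.4122 on the log2 scale, 1 of 9 members against 8.74% of all genes. Among mice labelled HuR m-/- it was -0.9243 for Asb5 and -0.4698 for Asb11, 2 of 9 members against 1.35% of all genes. The call of Asb10 was lost without any 1 of 24 mice and that of Asb11 without any 1 of 10. The values of each sex stand with the comparisons above.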

How the results depend on the processing

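Members called kept their number within 1.5 times under most alternatives, and the exceptions are given here for limma unless stated. Counts include Asb12, also where FHE enters. For FCE against FC, 0 became 1 with DESeq2, with only the compared groups, and with the slow fibre or Myl1 covariate. For FHE against FH, 2 became 1 with only the compared groups, with Myl1, and without MH 24, FH 19 and FH 30 (mouse by mouse 1 to 3). For MCE against MC, 0 became 2 with sample weights and 1 with only the compared groups or Myl1 (0 to 1), and for the running average 0 became 1 with slow fibre genes. By sex, 4 in FC against MC became 1 with adipocyte and 2 with slow fibre genes (3 to 5). In FCE against MCE 3 became 1 without MCE 10 and MCE 13 (2 to 4), in FH against MH 4 became 2 with only the compared groups or liver genes and 1 with adipocyte genes (2 to 4), in FHE against MHE 3 became 1 with adipocyte genes (2 to 3), and in the average 8 became 3 and 4 with adipocyte and slow fibre genes (8 to 8). By label, 3 in MH against MC became 1 with locked mice only and 0 with only the compared groups, without the 3 mice, or with liver, slow fibre genes or Myl1 (0 to 5). In MHE against MCE 1 became 2 with sample weights and 0 with only the compared groups, without MCE 10 and MCE 13, or with adipocyte, slow fibre genes or Myl1 (0 to 1). The average of 4 became 0 with slow fibre genes or Myl1 (4 to 5). The running difference between sexes went from 1 to 0 in controls with no filter, without MCE 10 and MCE 13, or with liver or adipocyte genes (0 to 1), and from 2 to 1 in labelled mice without the 3 mice (1 to 3). The sex average turned for Asb14 to 0.000205 (adipocyte) and 0.01392 (slow fibre), and for Asb15 to 0.0005181 (slow fibre). The cause of these changes was not tested. Over all genes, calls moved by over 1.5 times as follows. FCE against FC went from 1251 to 639 (liver) and 235 (adipocyte), FHE against FH from 551 to 161 (compared groups), MCE against MC from 464 to 1046 (weights), 716 (adipocyte) and 120 (without MCE 10 and MCE 13), MHE against MH from 6 to between 2 and 226 (DESeq2), and the running average from 854 to 1331 (weights) and 553 (liver). By sex, adipocyte genes took 3079 to 688 in FC against MC, 2763 to 692 in FH against MH (1739 with compared groups), 797 to 322 in FHE against MHE and 4720 to 1109 in the average, and FCE against MCE went from 1096 to 586 without MCE 10 and MCE 13 and 720 (slow fibre). By label, FH against FC went from 55 to between 0 and 186, MH against MC from 165 to between 1 and 405 (8 without MC 20, 448 without MH 8), MHE against MCE from 376 to between 6 (Myl1) and 1037 (weights), and the average from 1475 to 84 (slow fibre) and 57 (Myl1). The running difference between sexes went from 1251 to 667 (adipocyte) and 763 (without MCE 10 and MCE 13) in controls and from 193 to between 99 and 331 in labelled mice. The label by wheel test in males went from 5 to 34 (weights), 13 (DESeq2), 3 (stricter filter, or without MCE 10 and MCE 13) and 0 (edgeR), and the label by sex test from 0 to 75 (adipocyte) and 1 (DESeq2). No scaling moved the median of all genes by over 0.1.

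Mouse numbers shared by the sexes did not pair them (8 of 22 same-number pairs correlated above 0.1, from -0.293 to 0.458). With the replicate block, 0 members were called in FH against MH and 0 in FHE against MHE, and 62 of 2763 and 296 of 797 genes were. FH and MH share no mouse number, so the block compares them only through other groups. The loss of calls in FH against MH therefore shows nothing about that difference. The block also ended the calls of Asb2 (-0.38, adjusted p = 0.0808) and Asb12 (-0.35, adjusted p = 0.269) in FC against MC and of Asb11 (0.30, adjusted p = 0.0655) in FCE against MCE, and all 8 calls of the sex average remained. Depth limits Asb18 most, with 27 to 227 counts per mouse.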

Other observations

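Asb18, the member at the lowest level, was called in no comparison by limma. Its group medians lay between 7.69 CPM (FH) and 9.77 CPM (FC), and its lowest value, 2.99 CPM, was in an MC mouse whose group reached 9.73 CPM. Between pairs of groups, Asb18 had an unadjusted p under 0.05 in 2 comparisons, with differences of 0.42 ± 0.16 on the log2 scale for MCE against MC (adjusted p = 0.14) and -0.33 ± 0.15 for MHE against MCE (adjusted p = 0.264).

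Asb8 was the member whose log2 fold change by genotype label was above 0 in all 4 comparisons, at 0.19 ± 0.10 in FH against FC, 0.14 ± 0.10 in MH against MC, 0.14 ± 0.09 in MHE against MCE and 0.18 ± 0.10 in FHE against FCE, none past the threshold where a test was made. Asb2, Asb10, Asb14 and Asb15 were below 0 in all 4, with Asb2 at -0.23, -0.49, -0.27 and -0.25 in the same order. FHE against FCE was used in the choice of the genes.

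Genes of other tissues varied between mice. The insulin genes Ins1 and Ins2 were high in every MHE mouse and in MCE 28, with a mean log2(CPM + 0.5) of 2.39 to 3.45 in MHE and 3.03 in MCE 28, against at most -0.46 in every other mouse outside MHE. Liver genes reached 6.65 on that scale in FC 15 and brain genes 5.27 in MH 9, and 6 of 18 liver genes were called lower with running. Of 8 Schwann cell genes none was called by limma in the averages for running, sex or label, with 1, 1 and 3 at an unadjusted p under 0.05. With the liver genes as a covariate the 4 members lower by genotype label in the average kept adjusted p values of 0.000758 to 0.0309.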
